A study of Mus musculus with 8 samples.

Results

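Levels of 10 genes of 2 antiviral groups were followed across the 8 libraries of the series. The groups were the tripartite motif (TRIM) genes Trim12a, Trim12c, Trim21, Trim25, Trim30a and Trim34a, and the genes of nuclear bodies Sp100, Sp110, Sp140 and Pml. The genes were picked by their symbols, with the levels of these libraries already known, out of 23500 genes in the tables. All 10 were found, in 14 RefSeq transcripts. Since the difference between the arms was known when they were picked, it is described for them here without a test. The cells were mouse mesenchymal stem cells from bone marrow, which can form bone, cartilage and fat, and every library carried the p53 knockout. They came from 4 lines, each grown from a single cell and numbered 2, 4, 8 and 12, at fewer than 20 passages. Each line was transduced with a retrovirus for luciferase (Luc, the control arm) or with a retrovirus for cFos, a subunit of the AP-1 transcription factor, and the labels do not say which promoter drives the insert. Cells were kept in MesenCult medium and split every 3 days. This gave 4 Luc and 4 cFos libraries of polyadenylated RNA, 1 of each per clone. The labels give no age or strain of the donor animals, and every clone and arm stands for 1 culture, so any spread given is that between clonal lines. Series of 4 values are in the order of clones 2, 4, 8 and 12.

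Most TRIM proteins have an amino-terminal RING domain that attaches ubiquitin, and many of them restrict viruses or feed into the innate immune response. PML is itself a TRIM protein and forms the scaffold of PML nuclear bodies, small spheres in the nucleus that hold SUMO-modified proteins such as SP100. Interferons raise the transcription of many of these genes through a transcription factor complex that includes STAT2 and IRF9 and binds a short sequence called the interferon-stimulated response element (ISRE). The mouse Trim12, Trim30 and Trim34 genes lie next to each other, are related to the human gene TRIM5, and have close copies.

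The stretches of promoter that hold an ISRE are shown because they are a sequence feature of 5 of the 6 TRIM genes, Trim25 being the exception, that their choice did not use. In RefSeq's promoter windows of build GRCm38.p6, 300 bases long, the letters GAAA, any 2 bases and GAAA again were searched on both strands. They were present in 5 of the 10 genes, all on chromosome 7, and in 3.99% of the 27025 genes with a window (3.44% of 32851 windows). The windows below are 30 bases long, 5′ to 3′ on the strand of the gene, with the match in capitals.
Trim12a, chr7:104315466-104315495, minus strand: agagttgtggTTTCTGTTTCatttccagag
Trim12c, chr7:104353359-104353388, minus strand: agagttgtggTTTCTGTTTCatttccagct
Trim34a, chr7:104244457-104244486, plus strand: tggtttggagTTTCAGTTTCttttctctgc
Trim30a, chr7:104465210-104465239, minus strand: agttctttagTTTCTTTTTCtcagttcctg
Trim30a, second start site, chr7:104446104-104446133, minus strand: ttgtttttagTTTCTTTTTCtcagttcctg
Trim21, chr7:102565450-102565479, minus strand: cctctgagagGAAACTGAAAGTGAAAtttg
The Trim12a and Trim12c windows were identical at 28 of 30 bases, and the windows of the 2 Trim30a start sites at 26 of 30. The match began 29 bases before the start site in Trim12c and 36 bases before it in Trim30a. It began 10 bases after the start site in Trim12a and Trim34a, and 2 bases after the second one of Trim30a. In Trim21 a pair of overlapping matches began 13 and 19 bases after it. The 250 bases before the first Trim30a start site show the match in its setting.
Trim30a, chr7:104465194-104465443, minus strand: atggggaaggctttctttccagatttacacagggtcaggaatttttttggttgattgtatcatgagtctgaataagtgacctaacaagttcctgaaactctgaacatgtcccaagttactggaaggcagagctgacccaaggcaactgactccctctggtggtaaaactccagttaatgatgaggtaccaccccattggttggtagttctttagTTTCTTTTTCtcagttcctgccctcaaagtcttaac
Trim25, Sp100, Sp110, Sp140 and Pml had no match in their windows. The letters TTCNNNGAA of the gamma-activated site were found in none of the 10 genes (9.55% of all genes). Those of the AP-1 site, TGANTCA, were found in 1, Trim30a (8.97% of all genes). A match describes letters in a window and says nothing of binding, and its absence says nothing of the factor.

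The depth of the libraries, as coverage times transcript length, was 6.93 to 9.14 gigabases. Fos, the transduced gene, was at 41.1 to 302 FPKM in Luc and 505 to 1019 in cFos, higher in all 4 clones (exact two-sided permutation p = 0.0286 over 70 free arrangements, and 0.125 over the 16 that swap arms within clones, each the smallest possible). FPKM is the number of fragments per length of transcript and per size of the library, so it allows levels of different genes to be set side by side. All 12 stromal markers reached 1 FPKM in at least 1 library, though Eng and Lepr were low (Luc means 0.729 and 0.546 FPKM). Others were high in some clones only. In Luc, Thy1 was at 0.672, 0.0916, 0.597 and 21.9 FPKM, Nt5e at 0.251, 0.167, 0.265 and 2.48, and Alcam at 0.522, 2.12, 0.157 and 16.2. Thy1, Nt5e and Lepr reached 1 FPKM in fewer than 4 libraries. Sp140 and Sp110 are best known from blood cells, so blood markers were read as well. Of 18, Cd14 and Lyz2 reached 1 FPKM in any library, Ms4a1 and Tyrobp were listed at 0 in all 8, and the list summed to 2.51 to 3.04 FPKM in Luc and 2.09 to 2.64 in cFos. Lyz2, a lysozyme of macrophages and granulocytes, was lower in cFos in each clone. It was at 1.4004, 0.0542, 1.45 and 0.409 FPKM in Luc and 0.0761, 0, 0.0291 and 0.165 in cFos. The list had no common direction. Cd14 had means of 1.63 FPKM in Luc and 1.68 in cFos. Itgax was higher in cFos in each clone, with means of 0.0219 FPKM in Luc and 0.241 in cFos. The part of these markers in the results was not tested. In bulk RNA, fewer cells that express a gene and less RNA per cell cannot be told apart.

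All 10 genes were lower in the cFos library than in the Luc library of the same clone, in each of the 4 clones. Of the 11162 genes that reached 1 FPKM in 4 or more libraries, 20.9% were lower in cFos in all 4 clones. For 9 of the 10 genes every cFos library lay below every Luc library, which was so for 7.8% of the 11162 genes. Nothing is read from these counts, because the contrast was known when the genes were picked. The difference of mean log2(FPKM + 0.5), which understates the change of low genes, ran from -3.97 for Trim30a to -0.87 for Pml, with a median of -1.91 against -0.06 over all 11162 genes. All 10 passed the level filter, but Trim30a and Sp110 did so through the Luc libraries alone, and 5 genes reached 1 FPKM in all 8 libraries.

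**Figure D1:**
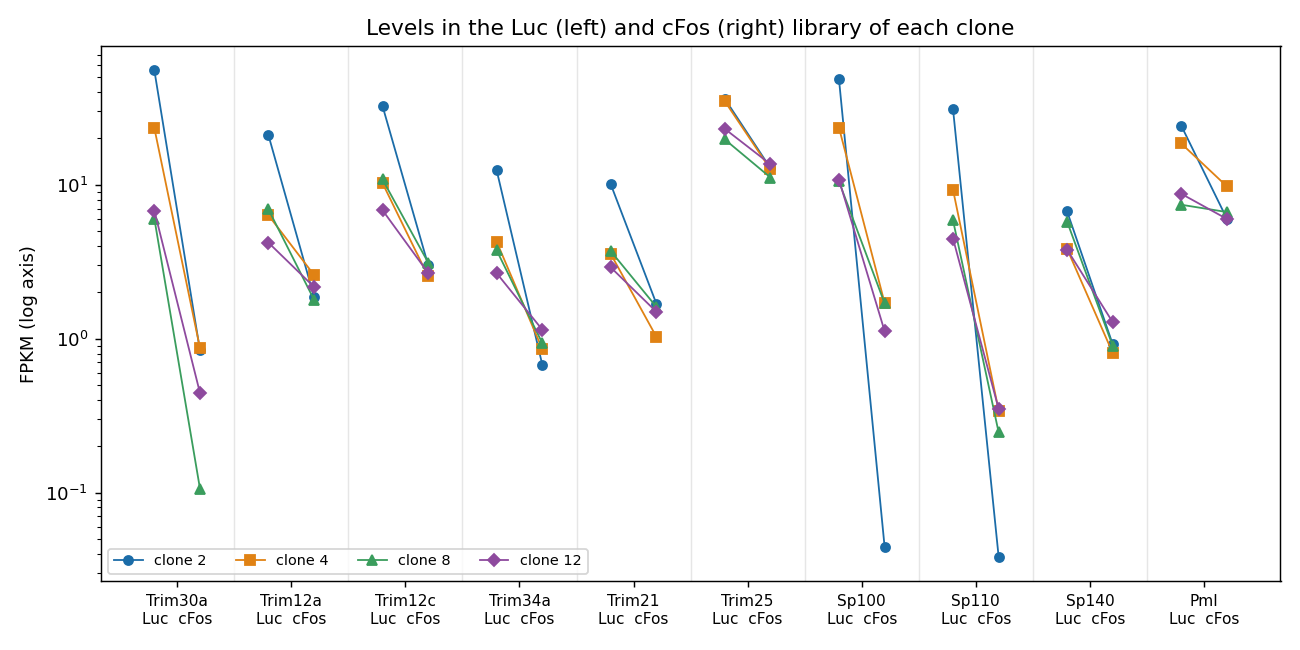
FPKM (log axis) of each of the 10 genes in the Luc library (left point) and cFos library (right point) of a clone, joined by a line, with 1 colour per clone. Every line slopes down, the Luc points of clone 2 are the highest for each gene, and the Sp100 and Sp110 lines of clone 2 end near 0.04 FPKM.

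Trim30a, which restrains signalling to NF-kappaB, had the widest difference (chromosome 7, 111557540 to 111613707, mm9, as for all positions that follow). The Luc libraries held 55.4, 23.3, 6.03 and 6.79 FPKM, the cFos libraries 0.838, 0.869, 0.106 and 0.444. The arms did not overlap. The means were 22.9 ± 23.1 and 0.564 ± 0.362 (SD, n = 4), a log2 difference of -3.97 (SE 0.65). Within clones the Luc level was 66.1, 26.9, 56.9 and 15.3 times the cFos level, so the difference was wide in each clone although the Luc levels were 9.20-fold apart.

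Trim12c and Trim12a, mouse relatives of the retrovirus restriction factor TRIM5, had differences of like size. Trim12c (111487268 to 111501872) had Luc levels of 32.4, 10.2, 10.8 and 6.83 FPKM and cFos levels of 3.003, 2.53, 3.12 and 2.67. Its log2 difference was -1.98 (SE 0.40). Clone 2 stood well above the rest in Luc, while the cFos libraries lay within 1.23-fold of each other. Trim12a (111448411 to 111464009) had Luc levels of 20.99, 6.34, 6.92 and 4.20 FPKM, against 1.87, 2.59, 1.79 and 2.17 in cFos, a log2 difference of -1.71 (SE 0.41). The order of the clones in Luc was the same as for Trim12c at both ends, clone 2 highest and clone 12 lowest. Summed, which removes the split of reads between these copies but not that with Trim5, Trim12a and Trim12c were at 24.7 ± 19.4 FPKM in Luc and 4.93 ± 0.129 in cFos.

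Trim34a, an interferon-inducible neighbour (111392971 to 111410750), had Luc levels of 12.4, 4.27, 3.75 and 2.66 FPKM, against 0.677, 0.854, 0.936 and 1.14 in cFos. Its arms did not overlap, and the log2 difference was -1.95 (SE 0.39). The clone with the highest Luc level had the lowest cFos level and the reverse, so the clones changed places: the Luc level was 18.4 times the cFos level in clone 2 and 2.33 times in clone 12.

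Trim21, the cytosolic antibody receptor that directs antibody-coated viruses to the proteasome (chromosome 7, 109706436 to 109713983), had Luc levels of 10.1, 3.55, 3.70 and 2.90 FPKM, against 1.69, 1.03, 1.61 and 1.49 in cFos. The log2 difference was -1.36 (SE 0.34), and the arms lay apart. Trim25, a ubiquitin ligase that activates the RNA sensor RIG-I (chromosome 11, 88860717 to 88881607), had the highest mean of the 10 in both arms, though Trim30a and Sp100 were above it in Luc clone 2. Its Luc libraries held 36.1, 34.8, 19.7 and 23.1 FPKM, against 12.8, 12.6, 11.1 and 13.6 in cFos, a log2 difference of -1.11 (SE 0.20). Here clones 2 and 4 were both high in Luc, and the cFos libraries stayed above 11 FPKM, so that Trim25 and Pml were the only ones of the 10 above 5 FPKM in any cFos library.

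Sp100, which SUMO anchors in PML bodies (chromosome 1, 87546625 to 87606023), had Luc levels of 48.8, 23.5, 10.496 and 10.8 FPKM, against 0.0446, 1.71, 1.70 and 1.12 in cFos. Its log2 difference was -3.77 (SE 0.58). The cFos library of clone 2 was far below the other 3 cFos libraries, and the authors' confidence limits there, 0 to 0.0892 FPKM, did not meet theirs, which began at 0.863. Sp110, known in mice for resistance to intracellular bacteria (87473475 to 87500466), had Luc levels of 30.9, 9.26, 5.86 and 4.47 FPKM, against 0.0380, 0.341, 0.246 and 0.349 in cFos, a log2 difference of -3.76 (SE 0.51). Again the cFos library of clone 2 was the lowest, with a lower limit of 0 for its main transcript.

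Sp140, a chromatin reader of the same family (87497278 to 87541611), had Luc levels of 6.70, 3.82, 5.76 and 3.78 FPKM, against 0.916, 0.806, 0.895 and 1.28 in cFos. The log2 difference was -1.88 (SE 0.22), the smallest SE of these 3 genes. Unlike its neighbours, it was not lowest in the cFos library of clone 2, and its Luc levels differed by 1.77-fold between clones, the narrowest range of the 10. A second Sp110 transcript with a longer span held 0.00165% to 14.6% of the Sp110 FPKM in the Luc libraries. Its span overlaps the start of Sp140. Whether their exons overlap was not checked, so whether reads there are open to both genes is not known.

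Pml (chromosome 9, 58064987 to 58097593) had the smallest difference. Its Luc libraries held 24.2, 18.5, 7.41 and 8.73 FPKM, against 6.01, 9.76, 6.64 and 5.99 in cFos, a log2 difference of -0.87 (SE 0.36). The arms overlapped, since the cFos library of clone 4 was above the Luc libraries of clones 8 and 12. Within clones the Luc level was 4.03, 1.90, 1.12 and 1.46 times the cFos level. The transcript with more of the Pml FPKM (5377 bases) had Luc levels of 16.9, 13.8, 4.16 and 6.13 FPKM, against 4.47, 7.68, 4.96 and 4.62 in cFos, so in clone 8 it was higher in cFos. There the authors' limits just missed each other, 3.77 to 4.54 FPKM in Luc and 4.55 to 5.36 in cFos. The other transcript (5239 bases) had Luc levels of 7.33, 4.71, 3.26 and 2.60 FPKM, against 1.55, 2.08, 1.69 and 1.37 in cFos, with no overlap between the arms. Over the 10 genes, the authors' limits for the main transcript lay apart between the arms for all 10 in each clone, with Luc the higher arm except for Pml in clone 8. The share of all genes with limits apart was not computed. Each set of limits belongs to 1 culture and holds no spread between cultures, so nothing is read from this count.

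**Figure D2:**
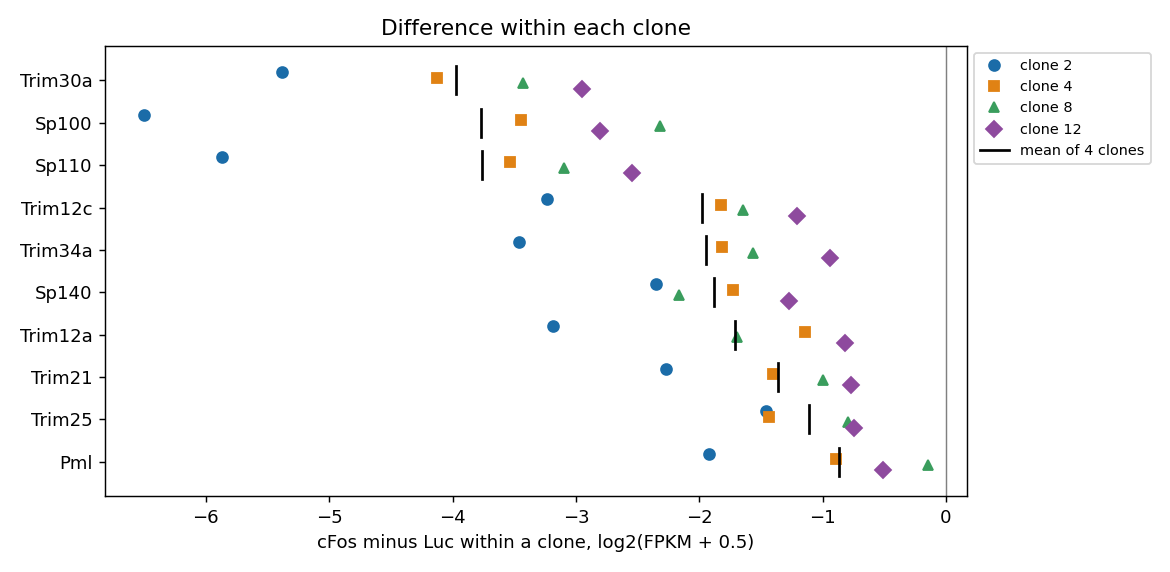
Difference between the cFos and the Luc library of a clone on the scale of log2(FPKM + 0.5), 1 symbol per clone, with a black line at the mean of the 4 clones, for the 10 genes in order of that mean. All 40 symbols lie left of 0, those of clone 2 farthest left for each gene, and Pml in clone 8 lies at -0.15.

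Clone 2 had the highest Luc level for all 10 genes, against 27.9% of the 11162 genes, and clone 12 the lowest for 6. The share of all genes lowest in clone 12 was not computed. The Luc levels were known when the genes were picked, so nothing is read from these counts. Summed over the 10 genes, the Luc libraries of clones 2, 4, 8 and 12 held 278, 138, 80.4 and 74.2 FPKM, and the cFos libraries 27.9, 33.1, 28.2 and 30.2. Trim25 and Pml made up most of the cFos sums. The median range between clones on the scale of log2(FPKM + 0.5), which narrows the range of low levels, was 2.10 in Luc and 0.50 in cFos for the 10 genes, and 0.63 and 0.51 over all 11162 genes. On that scale each of the 10 had the wider range in Luc, as did 63.3% of all genes. As ratios of FPKM, the range was wider in cFos for Sp100 (38.4-fold against 4.65-fold in Luc) and Sp110 (9.19-fold against 6.92-fold), ratios that rest on cFos clone 2, where the lower limit was 0. Trim30a was wide in both arms (8.21-fold in cFos, 9.20-fold in Luc). The median difference between the arms, which contains the Luc level, was -3.21, -1.77, -1.67 and -1.08 in the order of the clones, where the median over all genes was between -0.09 and -0.02. With 1 library per clone and arm, a difference between clones in the response cannot be tested.

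**Figure D3:**
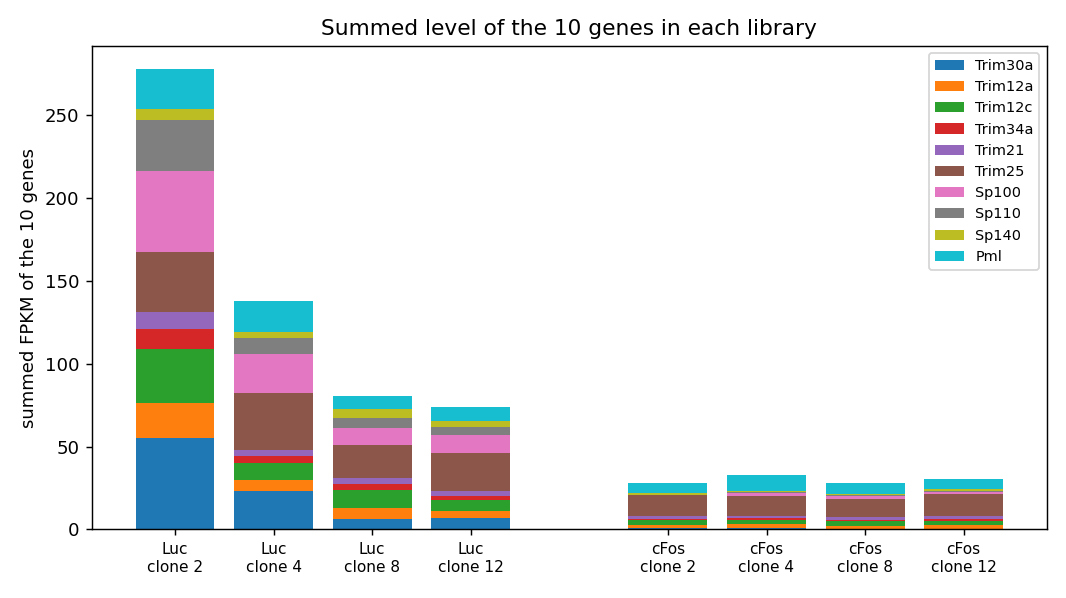
Summed FPKM of the 10 genes in each library, stacked by gene. The Luc bars drop from 278 in clone 2 to 74.2 in clone 12, and the 4 cFos bars lie between 27.9 and 33.1.

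Clone differences common to both arms had no part in the choice of the genes and were tested by a limma F test over clones. None of the 10 passed (adjusted p from 0.235 for Trim30a to 0.915 for Sp100), where 0.484% of the 11162 genes did. With so low a share, nothing is read from the absence of calls. A clone difference present in 1 arm only also adds to the residual of this test. At an unadjusted limma p under 0.05 there was 1, Trim30a, which like Sp110 entered the test through its Luc libraries alone. The share of all genes at that unadjusted limit was not computed, so nothing is read from this count.

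The order of the levels was not the same in the 2 arms. In Luc it ran Trim25 (28.4 ± 8.28 FPKM), Sp100 (23.4 ± 17.97), Trim30a, Trim12c, Pml (14.7 ± 8.04), Sp110, Trim12a, Trim34a, Trim21 and Sp140 (5.02 ± 1.45). Each of the 9 neighbouring pairs in that order differed by less than the larger of their SDs. In cFos it ran Trim25 (12.5 ± 1.02), Pml (7.10 ± 1.795), Trim12c (2.83 ± 0.274), Trim12a, Trim21, Sp100 (1.14 ± 0.783), Sp140, Trim34a, Trim30a and Sp110 (0.243 ± 0.145). There the leading 4 genes differed from the next in order by more than either SD, and the 5 pairs from Trim21 down did not. Trim30a was at rank 3 in Luc and rank 9 in cFos, and Pml at ranks 5 and 2.

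The members on chromosome 7 from Trim34a to Trim30a lie within 221 kb, and the 3 Sp genes on chromosome 1 within 133 kb. Between and beside the former lie close copies. Trim30d had Luc levels of 17.3, 8.06, 2.90 and 2.09 FPKM, against 1.19, 1.07, 0.149 and 0.542 in cFos, and did not pass the test (log2 difference -2.39, limma adjusted p = 0.0534), but passed with the clone as a replicate block (0.0103) and without Luc 12 (0.0287). Trim34b was at 0.516 to 1.64 FPKM in Luc and 0.0816 to 0.216 in cFos, and Trim6 at 0.238 to 0.784 and 0.126 to 0.228, both too low to be tested. Trim30b and the pseudogene Trim30e-ps1 stayed under 0.1 FPKM. The 15 olfactory receptor genes within 200 kb of either end reached at most 0.0260 FPKM.

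Beyond Sp100 on chromosome 1, A630001G21Rik was at 1.25, 1.27, 1.23 and 1.38 FPKM in Luc and 0.377, 0.597, 0.5499 and 0.688 in cFos (adjusted p = 0.0568). The next gene, Cab39, was at 28.95 FPKM in Luc and 30.1 in cFos (limma adjusted p = 0.840). Itm2c, beyond it, was at 111 FPKM in Luc and 76.1 in cFos (limma adjusted p = 0.121). In the cFos library of clone 2, where Sp100 and Sp110 were lowest, Cab39 was at 27.8 FPKM and Itm2c at 92.5. Whether position has a part in these levels was not tested. Of the genes named as copies of the Sp family, Csprs was listed at 0 in all libraries, and A530032D15Rik and C130026I21Rik were under 0.8 FPKM in all.

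**Figure D4:**
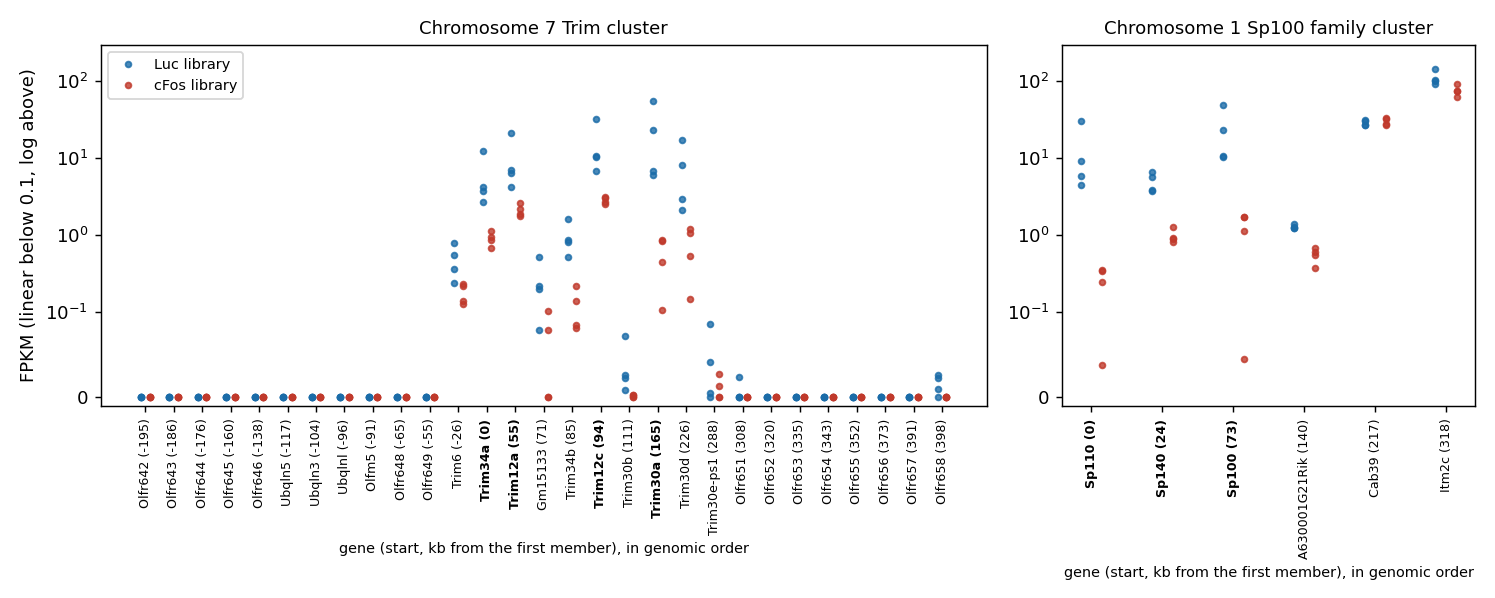
FPKM (linear below 0.1, log above) of every gene listed within 200 kb of the chromosome 7 Trim cluster and of the chromosome 1 Sp100 family cluster, in genomic order, with the start in kb from the first member in parentheses, members in bold, and 1 point per library. The Luc points of each member lie above its cFos points, while the olfactory receptor genes lie at or near 0. Cab39 and Itm2c overlap between the arms.

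How far copies could trade reads was read from shared sequence. Of the 50-base stretches of the Trim34a transcript in GENCODE M21, 41.5% also occurred in Trim34b. For Trim12a it was 31.2%, shared with Trim5 and Trim12c, and for the main Trim12c transcript 32.7%. Trim30a shared 6.53%, all with Trim30d. Sp140 shared 54.6% and Sp110 43.9%, with several predicted genes and, for both, C130026I21Rik, and Sp100 10.2%. The Sp110 value is that of its transcript with the longer span, which held less of its FPKM, and the main Sp110 transcript was not compared. Trim21 (at most 0.304%) and Trim25 (0.199%) shared very little and Pml nothing, so reads of these 3 were rarely or never open to more than 1 gene. With copies summed, the log2 difference was -3.71 for the Trim30 genes and -2.04 for Trim34a with Trim34b, against -3.97 and -1.95 for the single members.

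The other genes of the TRIM family gave no call. Of 54 listed, 26 could be tested, and by limma none rose and none fell (background 2.92% higher and 2.62% lower in cFos). At an unadjusted p under 0.05, 3 were higher and 4 lower, and with the replicate block (background 4.28% lower) 1 fell, Mid1, a microtubule-bound TRIM protein (7.81 ± 1.86 FPKM in Luc, 3.82 ± 1.69 in cFos, adjusted p = 0.0143, against 0.0651 without the block). Leaving out 1 library gave at most 1 call in either direction: Trim2 higher without Luc 8, Trim46 higher without Luc 12 and Mid1 lower without cFos 8. The 7 genes at an unadjusted p under 0.05 were Trim2, Trim3 and Trim46, which were higher, and Trim24, Trim26, Trim56 and Mid1. For the unadjusted limit the share of all genes was not computed, so nothing is read from these counts. Trim28, the corepressor KAP1, was at 79.3 ± 12.4 and 68.8 ± 8.82 (adjusted p = 0.493). The median log2 difference of the 26 was -0.08. Whether the 10 genes differ from the rest of the family was not tested.

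Partners of PML in nuclear bodies and of the SUMO pathway gave no call either. Of 35 tested genes none rose and none fell, also with the replicate block and without each library. At an unadjusted p under 0.05 there were 1 higher, Rb1, and 2 lower, Sumo3 and Cabin1, counts for which no share of all genes was computed. Daxx, the histone chaperone that SUMO draws to PML bodies, had Luc levels of 30.5, 18.5, 14.0 and 14.4 FPKM, against 14.5, 13.7, 11.0 and 12.2 in cFos (log2 difference -0.51, limma adjusted p = 0.273). Its highest library was again Luc 2. The median log2 difference of the 35 was 0.0019.

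Partners of TRIM25 and TRIM21 held 2 falls among 16 tested genes, none rose and 14 did not pass (background 2.62% lower and 2.92% higher). The list was chosen with earlier results of these data known, so its count is not read against that background. Ddx58, which encodes RIG-I, fell from 40.8 ± 23.5 to 6.61 ± 1.19 FPKM (log2 difference -2.40, SE 0.33, limma adjusted p = 0.00470). Ifih1, the related RNA sensor MDA5, fell from 14.5 ± 11.9 to 2.01 ± 0.114 (-2.28, adjusted p = 0.0213), a call that ended without cFos 2, Luc 4, cFos 4 or cFos 8 (up to 0.0684). Zc3hav1, the antiviral protein ZAP that works with TRIM25, was at 32.5 ± 15.8 and 14.5 ± 1.31 (adjusted p = 0.0746, and 0.0271 without Luc 8). Leaving out 1 library gave 1 to 3 falls in this list.

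Among 10 tested genes of the interferon signal, 3 fell and 7 did not pass (background 2.62% lower). None rose. This list, too, was chosen with earlier results of these data known, and its counts are not read against the background. With the replicate block 4 fell (background 4.28%), the added one being Irf1 (adjusted p = 0.0228, and 0.0489 without Luc 8 and without the block). Stat2 and Irf9, which act at the ISRE, both fell, Stat2 from 33.1 ± 24.7 to 4.57 ± 0.905 FPKM and Irf9 from 31.6 ± 11.3 to 7.24 ± 0.784 (log2 differences -2.46 and -1.99, limma adjusted p = 0.0167 and 0.00284). Stat2, too, was highest in Luc clone 2, with Luc levels of 67.9, 32.02, 11.515 and 21.1 FPKM, against 3.55, 4.65, 4.33 and 5.73 in cFos. Ifngr1, a receptor chain for interferon gamma, fell from 79.7 ± 33.1 to 30.7 ± 4.76 (adjusted p = 0.0282). The receptor chains of type I interferon did not pass, Ifnar1 at 13.6 ± 2.95 and 11.0 ± 0.864 and Ifnar2 at 33.2 ± 4.19 and 30.8 ± 3.84. Ifnb1, which encodes interferon beta, was listed at 0.644 FPKM in Luc 2, 0.0436 in Luc 12 and 0 in the other 6 libraries, and its part in the levels of the 10 genes was not tested. Calls ended for Stat2 without cFos 2 or cFos 4 (up to 0.0629), and for Ifngr1 without cFos 2, cFos 4, Luc 8 or cFos 12 (up to 0.0888), and the list held 1 to 3 falls with 1 library left out.

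**Figure D5:**
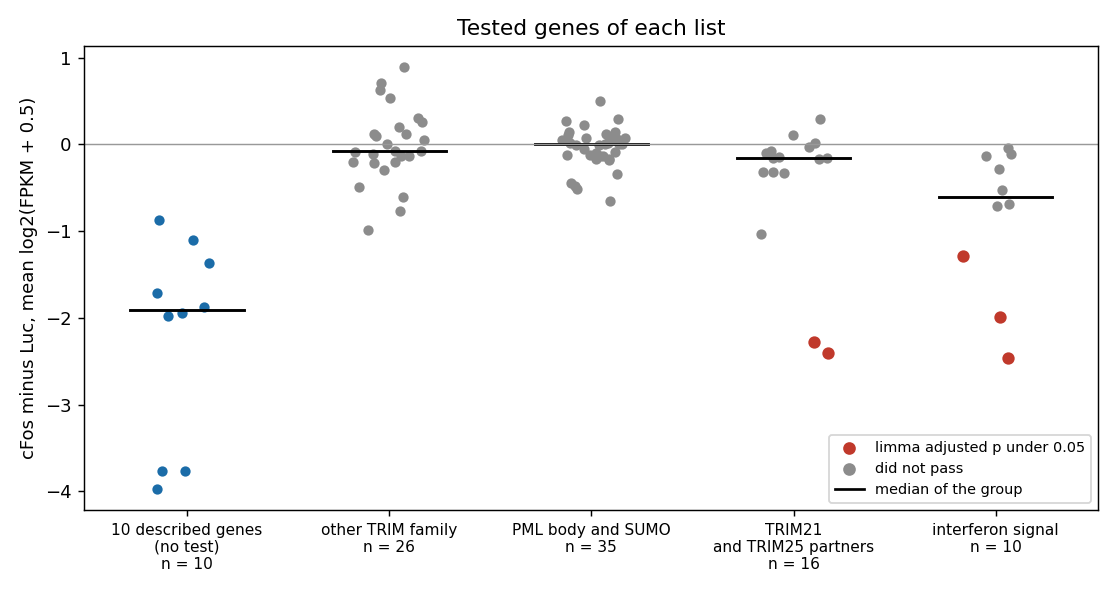
Difference of mean log2(FPKM + 0.5) between cFos and Luc for the 10 genes and for the tested genes of 4 lists, 1 point per gene, with the median of each group as a black line. Red points passed limma's adjusted threshold: 2 of 16 TRIM21 and TRIM25 partners and 3 of 10 interferon signal genes, and none of the TRIM family or PML body genes. The lists were chosen with earlier results of these data known.

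Genes with the most similar profile were sought over the 8 libraries, among 8395 others with a mean of at least 5 FPKM, by the root mean square distance from the median profile of the 10 on the log2 scale. The nearest were Tor3a (distance 0.18), Parp12 (0.22), Parp10 (0.25), Dtx3l (0.27), Samd9l (0.28) and Parp9 (0.32), where the median of all was 1.11. Of the 10 genes themselves, Trim34a (0.09), Trim12c (0.14) and Trim12a (0.22) lay closest to that profile and Trim30a (1.19), Sp100 (1.11) and Sp110 (0.95) farthest. Tor3a, a torsin of the endoplasmic reticulum, had Luc levels of 65.6, 23.1, 14.4 and 16.4 FPKM, against 6.03, 5.30, 5.65 and 6.63 in cFos. Its highest library was Luc clone 2, and its arms did not overlap. Both traits follow from its choice by likeness to this profile, so nothing is read from them.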

How the data were processed

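Polyadenylated RNA of 8 cultures was sequenced from TruSeq libraries, per the labels' protocols. CASAVA 1.8.2, TopHat and Cufflinks with build mm9 are named in the submitters' processing notes; their options and annotation: not given in the sources used here. By their names per the file headers, the deposited values are FPKM with confidence limits, whose level is not stated, and coverage, a signal of mean depth per base that the authors did not normalize. Symbols came from RefSeq for 30227 of 30769 entries and from GENCODE M21 for 180; 362 kept their accession. Entries of a symbol were summed, and 3 genes with a failed status were left out.

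Python 3.11.15, pandas 2.3.3 and R 4.3.3 were used. limma 3.58.1 (lmFit, eBayes with trend) was fitted to log2(FPKM + 0.5) of all genes reaching 1 FPKM in 4 or more libraries, with Benjamini-Hochberg adjustment at 0.05, two-sided; the code was tested on simulated data. Read counts per gene are not in the columns, and no interval was computed from them; depth was estimated as coverage times length. A clone number pairs 2 libraries because both come from 1 line (deviations from the arm means correlated by 0.174, 0.593, 0.349 and 0.437 in clones 2, 4, 8 and 12), and the clone as a block was an alternative. The members and lists were chosen with earlier results of these data known. Named were the 10 members, Fos, up to 4 genes per list and direction with the smallest adjusted p among calls, a few preset partners, copies of members, and the 6 nearest profiles; others were named after their values were seen. Some genes of the lists are not reported here and are left out of the counts for their lists.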

Additional observations from a re-analysis of the deposited data

Results flagged for a closer look

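In 4 of 20 sets of 4 libraries, 1 library lay far from the rest relative to the range of its arm, on the scale of FPKM without logarithms. How often this occurs over all genes was not computed. The levels of these libraries were known when the genes were picked, so nothing is read from the count. All 4 were the Luc library of clone 2. Trim21 was at 10.07 FPKM there, with a gap to the next library of 0.888 of the range. Trim12c was at 32.4 FPKM (0.844), Trim12a at 20.99 (0.838) and Trim34a at 12.4 (0.835). These genes share a chromosome, and Trim12a and Trim12c share sequence, so the sets are not independent. In the same library Ifnb1 was listed at 0.644 FPKM, and its part in these values was not tested.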

How the results depend on the processing

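All 10 members stayed lower in cFos in every clone that kept both libraries, under each alternative tried. Their 164 single values moved by less than the SD over clones. Among these, the filters and the replicate block cannot change a member's own value, and some members would not pass the 5 FPKM filter. Leaving out 1 library can move the mean of its arm only by a part of that arm's SD. So nothing is read from the count of 164. Counting duplicated transcripts once left the values as they were. The median ran from -2.17 (pseudocount 0.1) to -1.61 (pseudocount 1), and from -2.10 to -1.53 with 1 library left out, the latter without Luc 2. Over all genes, 293 were lower and 326 higher. With no filter on low genes 83 and 164 passed, and with the clone as a replicate block 478 and 503. Leaving out 1 library gave 85 to 295 lower and 150 to 319 higher, the lowest both without cFos 2. Clone differences were called for 54 genes, for 6 at a minimum of 5 FPKM, and for 0 to 115 with 1 library left out. With no filter the calls of Ifih1, Stat2 and Ifngr1 ended (adjusted p = 0.102, 0.0919 and 0.114). The log2 difference of Fos, 3.06, had p = 0.125 in the exact permutation test with the replicate block, an alternative chosen after seeing the data that cannot go lower. Median scaling gave 247 lower and 383 higher. The cause of these shifts was not tested, beyond more genes entering the adjustment with no filter. No library or clone has a second culture, FPKM holds no counting error, and levels near 0.04 FPKM are at the edge of what the authors' limits separate from 0.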
